A study of Sus scrofa with 20 samples.

Results

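The microRNAs described here are miR-139, miR-582, miR-504 and miR-574, which in the pig genome each lie inside the interval of a protein-coding gene. They were taken as every entry of these 4 names, in any arm, in the deposited counts against pig and human miRNAs. This gave 13 of 892 entries, 5 of 284 in the pig reference and 8 of 608 in the human reference. The 4 were chosen because they were higher after intracerebral hemorrhage (ICH, a bleed into the brain) in these same libraries. Their differences between the groups are therefore given as a description, with no test.

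Small RNA was sequenced from peripheral blood mononuclear cells (PBMCs), mainly lymphocytes and monocytes, left after density gradient centrifugation. The donors were female American Yorkshire pigs weighing 36 to 41 kg, at an age of 80 to 90 days. The ICH group was 10 samples drawn 6 h after 2 to 4 ml of the animal's own blood was injected into the frontal white matter. The Control group was 10 samples drawn before the injection. Replicate numbers 1 to 10 occur in both groups and were used to pair them, although the labels name no animals. Sham surgery was not analysed here, so anaesthesia, surgery and time cannot be told apart from the bleed.

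A microRNA (miRNA) is cut from a hairpin whose 5' and 3' sides, the 5p and 3p arms, can each yield a mature strand of about the same length. The strand that is kept guides the silencing of messenger RNAs. An intronic miRNA can be cut from the transcript of its host gene or made from a start site of its own, and the files hold no host gene messenger RNA. Of the hosts, PDE2A and PDE4D are phosphodiesterases that break down cyclic nucleotides (PDE4D is specific for cAMP), and FGF13 is an intracellular FGF-like protein that binds sodium channels. In human cells, miR-139-5p is known as a repressor of growth in leukaemia and other tumours, and miR-504 as a repressor of the tumour suppressor p53.

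On Sscrofa11.1, MIR139 is 68 bp long and lies on chromosome 9 at 7175314 to 7175381, inside PDE2A (7136637 to 7227966). MIR582, 77 bp long, lies on chromosome 16 at 38580344 to 38580420, inside PDE4D (37897300 to 39406534). MIR504 is on chromosome X at 113495281 to 113495360, inside FGF13 (113460191 to 113955691), and MIR574 is on chromosome 8 at 30192280 to 30192359, inside FAM114A1 (30191950 to 30274167). The last 2 genes are 80 bp each. MIR574 lay only 330 bp from an end of its host's interval, whereas MIR504 lay 35090 bp, MIR139 38677 bp and MIR582 683044 bp from the nearer end of theirs. The gene table gives intervals and not exons or strands, so whether a miRNA lies in an intron or exon, and on which strand, was not checked. The 4 genes do not neighbour each other, being on 4 chromosomes. The nearest other annotated miRNA gene was MIR9809, 22950 bp from MIR504 and also inside FGF13, and MIR9800 lay 670524 bp from MIR582, also inside PDE4D. Neither of these neighbours was analysed here.

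Depth against the pig reference ran from 896960 to 2103685 reads, averaging 1366217 ± 373240 in ICH and 1349113 ± 375680 in Control libraries (SD, n = 10 each). Levels are given in CPM, the reads of a miRNA per 1000000 reads of its library after TMM scaling of library sizes. miR-150, abundant in lymphocytes, averaged 8490.0 CPM in ICH and 11433 CPM in Control libraries, and miR-142-5p, found across blood cells, averaged 13545 CPM in ICH and 16857 CPM in Control libraries. The entries described here were scarce by comparison. Together the 5 pig entries came to 390.4 to 900.0 CPM in ICH libraries (median 615.2) and 230.0 to 631.6 CPM in Control libraries (median 418.4). In these bulk samples a change in the number of cells of a type and a change in the RNA per cell cannot be told apart.

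The miR-139 hairpin gave by far the most reads of the 4, almost all from its 5p arm. miR-139-5p had 361 to 886 reads per library in ICH (median 618) and 229 to 739 in Control (median 423). In CPM this was 286.6 to 695.7 in ICH libraries (median 460.9) and 168.3 to 496.4 in Control libraries (median 322.1). The ranges overlapped, and 3 ICH libraries lay above the highest Control library. Within replicate numbers miR-139-5p was higher after ICH in 10 of 10, and the difference ran from 0.16 in number 3 to 0.92 in number 1 on the log2 scale. The fitted log2 difference was 0.51 ± 0.096 (SE, edgeR with the replicate number as a block), a 1.42-fold higher level, with means of 463.1 ± 137 CPM in ICH and 328.0 ± 102 CPM in Control (SD, n = 10 each).

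miR-139-3p, the other strand of the same hairpin, was counted at 21 to 82 reads in ICH libraries (median 55) and 16 to 47 in Control libraries (median 36.5). Its level was 14.7 to 82.5 CPM in ICH (median 44.8) and 9.87 to 39.9 CPM in Control (median 28.2). The 10 ICH libraries divided into 6 above the highest Control library and 4 at 23.5 CPM or less, numbers 2, 3, 4 and 6. It was higher after ICH in 8 of 10 numbers, with differences from -0.53 in number 2 to 1.37 in number 1, and a fitted log2 difference of 0.59 ± 0.17 (SE). The 5p arm made up 92.3% ± 2.53 of the miR-139 reads in ICH libraries and 92.7% ± 1.42 in Control libraries (SD, n = 10 each), so the arms kept nearly the same proportion in both groups. The 5p arm had more reads than the 3p arm in 10 of 10 libraries of each group.

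miR-582 was the scarcest of the pig entries and had the largest fitted difference. It had 12 to 81 reads per library in ICH (median 38) and 9 to 47 in Control (median 20). The level was 12.2 to 56.8 CPM in ICH libraries (median 26.1) and 6.29 to 29.1 CPM in Control libraries (median 15.0), so the groups overlapped, with 5 ICH libraries above the highest Control library. Its fitted log2 difference of 0.79 ± 0.22 (SE), 1.73-fold, was spread unevenly over the replicate numbers. Numbers 2, 3, 4 and 10 were higher after ICH by 1.41 to 1.87 on the log2 scale and number 8 by 0.91, while the other 5 numbers differed by -0.24 to 0.43. miR-582 was higher after ICH in 8 of 10 numbers, and the largest difference, in number 4, was 56.8 CPM in ICH against 14.5 CPM in Control.

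miR-504 showed a more even difference. It had 23 to 56 reads in ICH libraries (median 40.5) and 14 to 45 in Control libraries (median 25.5), or 17.2 to 50.9 CPM (median 28.2) in ICH and 8.39 to 33.0 CPM (median 21.9) in Control. The ranges overlapped, with 4 ICH libraries above the highest Control library. Within numbers it was higher in 9 of 10, and the exception, number 3, had 30.0 CPM in ICH and 33.0 CPM in Control. The fitted log2 difference was 0.71 ± 0.15 (SE), or 1.64-fold.

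miR-574 was read 35 to 126 times per ICH library (median 60) and 22 to 72 times per Control library (median 48.5). Its level was 29.3 to 59.8 CPM in ICH (median 53.1) and 16.1 to 50.1 CPM in Control (median 31.6), and 6 ICH libraries lay above the highest Control library. It was higher in 9 of 10 numbers, with number 5 at 29.3 CPM in ICH and 31.6 CPM in Control. Number 10 gave the largest difference, 49.4 CPM in ICH against 16.1 CPM in Control. The fitted log2 difference was 0.62 ± 0.14 (SE), or 1.53-fold, and the relative spread between animals was 20.6% of the mean in ICH and 31.1% in Control.

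**Figure D1:**
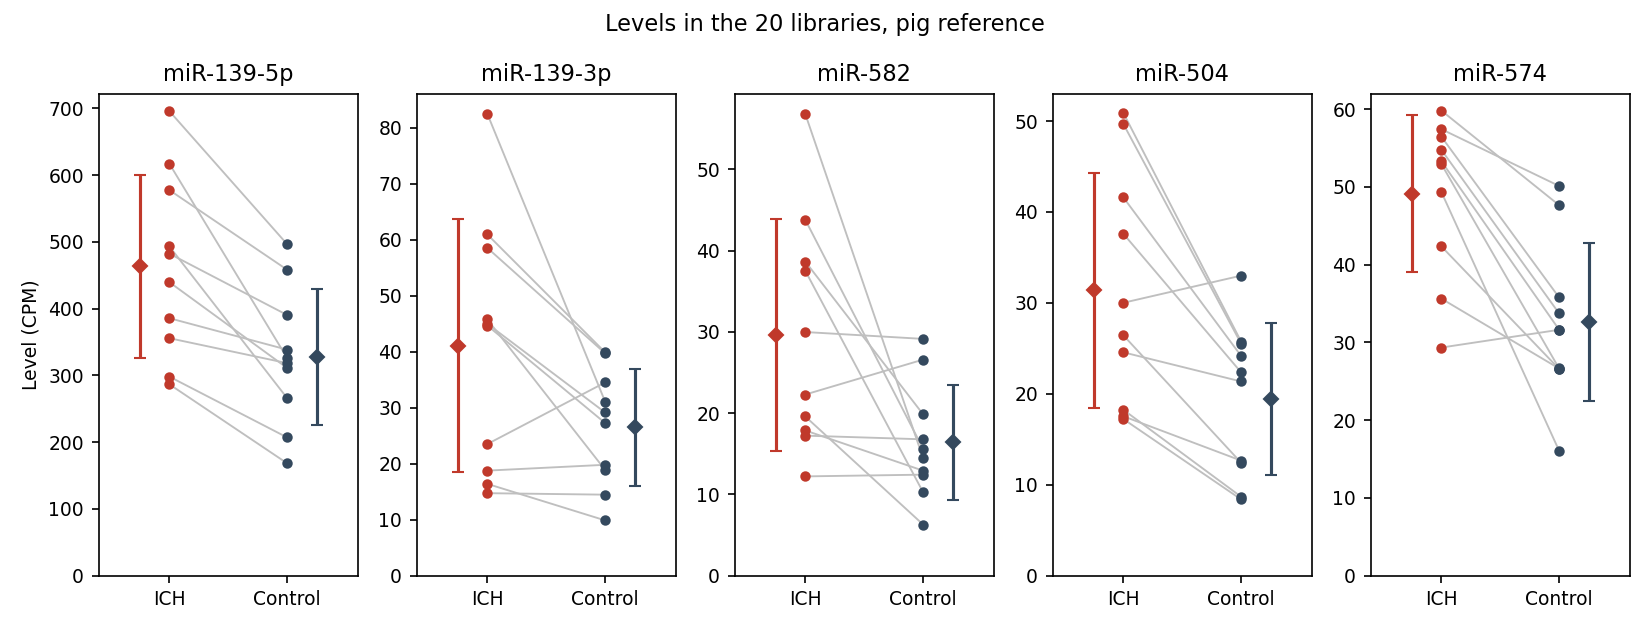
Level in CPM of the 5 pig-reference entries in the 10 ICH libraries (left, red) and 10 Control libraries (right, dark), with lines joining the same replicate number and diamonds with bars for the mean ± SD. miR-139-5p is higher in ICH in 10 of 10 numbers, and the ICH and Control ranges overlap in all 5 panels.

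The number of reads sets how much of the spread between animals can be counting noise. The SDs of within-number differences below come from log2 levels with a prior count of 2, which narrows differences at low counts. Those for counting error have no prior count, so the 2 kinds compare only roughly. For miR-504 the within-number log2 differences had an SD of 0.386, and counting error alone gives an SD of 0.390, so the values were close. The SDs were 0.806 for miR-582 and 0.428 from counting alone, 0.572 and 0.347 for miR-139-3p, and 0.448 and 0.299 for miR-574. For the deeply counted miR-139-5p the spread was 0.274 against 0.0947 from counting. Reads were counted without molecular identifiers and may repeat a molecule, so these values cover counting error only.

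All 5 pig entries were higher after ICH in 5 of 10 numbers (4, 6, 7, 8 and 10), 4 entries were higher in 4 numbers, and 3 entries in number 3. The lower entry differed between numbers. miR-582 was the lower one in numbers 1 and 9, miR-139-3p in number 2 and miR-574 in number 5, while number 3 was lower in miR-139-3p and miR-504.

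In the fit with the replicate block across all 179 pig-reference miRNAs tested, 5 of 5 entries had an adjusted p under 0.05 (edgeR quasi-likelihood test, Benjamini-Hochberg adjustment), against 11.7% of all tested miRNAs called higher after ICH and 10.1% called lower. Without number 7, 4 of 5 were called. Without the block 0 of 5 were called, against 0.0% of all tested. That fit had 35 of 179 miRNAs with an unadjusted p under 0.05 (smallest adjusted p = 0.0505, edgeR), and its errors for the 5 entries were 0.18 to 0.31 on the log2 scale. The entries were chosen from this contrast, so nothing is read from these counts. By size of the fitted difference, miR-582 stood in place 1, miR-504 in place 2, miR-574 in place 4, miR-139-3p in place 5 and miR-139-5p in place 12 of 179. The median of all 179 was -0.04. By level, miR-139-5p stood in place 75 and the other entries between places 138 and 159, among the scarcer miRNAs tested.

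**Figure D2:**
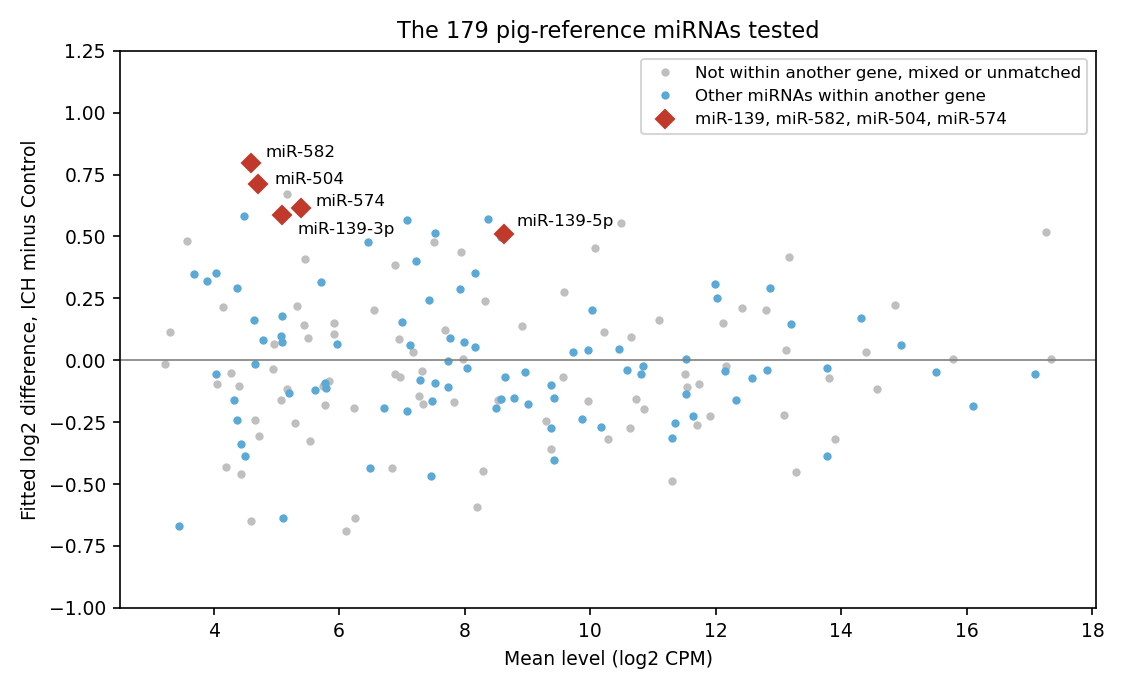
Fitted log2 difference, ICH minus Control, against mean level (log2 CPM) for the 179 pig-reference miRNAs tested, each point 1 miRNA. The red diamonds lie at the upper edge, with miR-582 highest at 0.79, and 4 of the 5 are among the scarcer miRNAs.

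The counts against human miRNAs, largely the same reads, show which arms were present. The counts of hsa-miR-139-5p and hsa-miR-504-5p equalled those of the pig entries in 20 of 20 libraries. Those of hsa-miR-139-3p were equal in 19 and those of hsa-miR-574-3p in 18. The pig entries named miR-504 and miR-574 without an arm therefore matched the human 5p and 3p arms read for read or nearly so. miR-582 was the exception. hsa-miR-582-3p had fewer reads than the pig entry in 20 of 20 libraries, 417 against 608 in all, and hsa-miR-582-5p had 78. The 2 human arms together came short of the pig entry, and which reads make up the rest was not tested. hsa-miR-582-3p took 71.0% as many reads as the pig entry in ICH libraries and 64.4% as many in Control libraries, and its fitted log2 difference was 0.99 ± 0.22 (SE), or 1.99-fold, against 0.79 for the pig entry.

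hsa-miR-582-3p ranged from 9.51 to 39.6 CPM in ICH libraries (median 18.02) and from 5.02 to 18.4 CPM in Control libraries (median 8.47), and was higher in 9 of 10 numbers. The ranges overlapped, with 7 Control libraries below the lowest ICH library, against 2 for the pig entry. The other tested human entries had fitted log2 differences of 0.57 ± 0.10 (miR-139-5p), 0.65 ± 0.17 (miR-139-3p), 0.78 ± 0.16 (miR-504-5p) and 0.68 ± 0.15 (miR-574-3p; SE each). With the block 5 of 5 tested entries had an adjusted p under 0.05, against 13.1% of the 245 tested miRNAs called higher and 6.12% called lower. Without the block 2 of 5 were called, against 2.86% higher and 0.816% lower, and without number 1 the blocked fit called 4 of 5 (edgeR, Benjamini-Hochberg). Each of the 5 human values was larger than its pig counterpart. The reads of 4 of the 5 are the same or nearly so in both tables, and the scaling factors and the set of miRNAs tested are not.

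**Figure D3:**
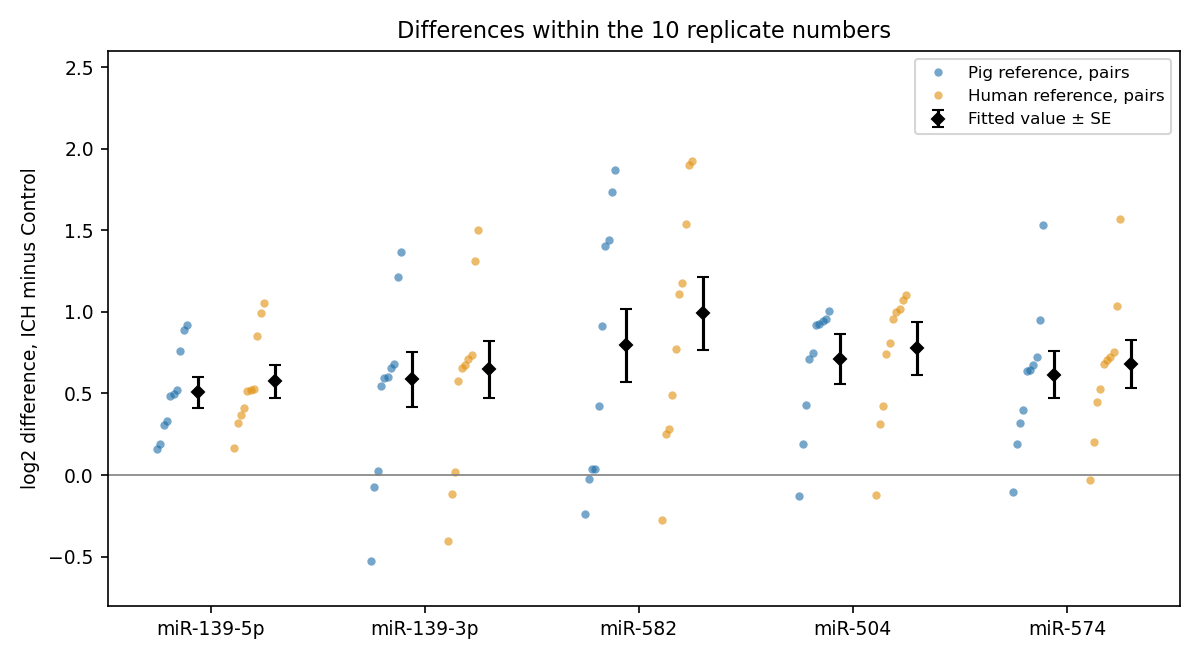
log2 difference in level, ICH minus Control, in each of the 10 replicate numbers for the pig reference (blue) and the human reference (orange), with the fitted value ± SE in black; labels give the pig entries, beside which stand hsa-miR-139-5p, hsa-miR-139-3p, hsa-miR-582-3p, hsa-miR-504-5p and hsa-miR-574-3p. miR-582 has the widest spread, from -0.24 to 1.87 in the pig reference, and miR-139-5p the narrowest, from 0.16 to 0.92.

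The 3 human entries too scarce to be tested were the opposite arms of miR-582, miR-574 and miR-504. hsa-miR-574-5p had 1 to 23 reads per ICH library (median 11) and 3 to 27 per Control library (median 6), and hsa-miR-582-5p had 0 to 10 reads in ICH (median 4.5) and 0 to 8 in Control (median 2). Each was higher after ICH in 7 of 10 numbers. hsa-miR-504-3p had 0 reads in the 10 ICH libraries and 1 read in Control number 2. The more abundant arm made up 85.9% ± 5.31 of the miR-574 reads in ICH and 84.0% ± 7.70 in Control, and 85.3% ± 6.88 of the miR-582 reads in ICH and 85.3% ± 8.45 in Control (SD, n = 10 each). The difference between groups was smaller than the spread between libraries in both cases, as for miR-139. Ligation favours some ends over others when small RNA libraries are made, so the proportion of the arms in the reads need not be their proportion in the cell.

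How the entries stood to each other before the bleed was not used to choose them, and the following values come from the 10 Control libraries. They are levels in reads, and because ligation favours some ends, their order need not be the order in the cell. The neighbours tested were set by the order of the mean levels in these same libraries. miR-139-5p had the highest level, above miR-574 by 3.26 ± 0.54 on the log2 scale (SD, n = 10) and in 10 of 10 libraries. The two-sided exact sign-flip test within libraries gave p = 0.00195, the smallest it can give, and an adjusted p of 0.00781 over the 4 neighbours in the order. miR-574 came next, then miR-139-3p, miR-504 and miR-582, and these neighbours did not differ past the threshold. The differences were 0.34 ± 0.68 between miR-574 and miR-139-3p (exact adjusted p = 0.195), 0.43 ± 0.57 between miR-139-3p and miR-504 (exact adjusted p = 0.0703) and 0.21 ± 1.01 between miR-504 and miR-582 (exact adjusted p = 0.52). Without number 3, 2 of the 4 neighbours differed. The order of the mean levels was the same in ICH libraries.

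Across the Control libraries the arms of miR-139 varied together, and the other relations among the entries did not pass the test. miR-139-3p and miR-139-5p correlated with Pearson's r = 0.908 (n = 10, two-sided permutation test p = 0.00035, adjusted p = 0.0105) and Spearman's rho = 0.891 (permutation p = 0.00099, adjusted p = 0.0297), adjusted over the 30 relations computed. Without the 2 libraries farthest from the median of miR-139-3p, r was 0.707 (permutation p = 0.0502), so the relation rests in part on those 2. Without Control number 4 or 6 the adjusted p was 0.0609 and 0.0981 (permutation test), with r at 0.890 and 0.836. With library totals in place of TMM it was 0.0546, with r at 0.895 (permutation test). The other 9 relations among the entries ran from r = -0.36, between miR-504 and miR-582, to r = 0.59, between miR-139-3p and miR-504, and 0 of the 9 passed the permutation test. At an unadjusted p under 0.05, 0 of the 9 passed as well. All levels are shares of the same libraries and scaled by the same factors.

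The same 30 relations included 4 miRNAs that mark blood cell types. These were miR-223-3p of myeloid cells (from the human reference), miR-150 of lymphocytes, miR-451 of red cells and miR-126-3p of platelets and endothelium. miR-139-5p ran with miR-126-3p at r = 0.756 (n = 10, permutation p = 0.0116, adjusted p = 0.174) and rho = 0.806 (permutation p = 0.00704, adjusted p = 0.106), which did not pass after adjustment. Without the 2 libraries farthest from the median of miR-126-3p, r was 0.618 (permutation p = 0.0911). For miR-504 the strongest of the 4 was with miR-150, at r = -0.58 (permutation adjusted p = 0.476). For miR-574 and miR-582 the values with the markers lay between r = -0.18 and r = 0.48, and 0 of the 20 marker relations passed after adjustment.

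**Figure D4:**
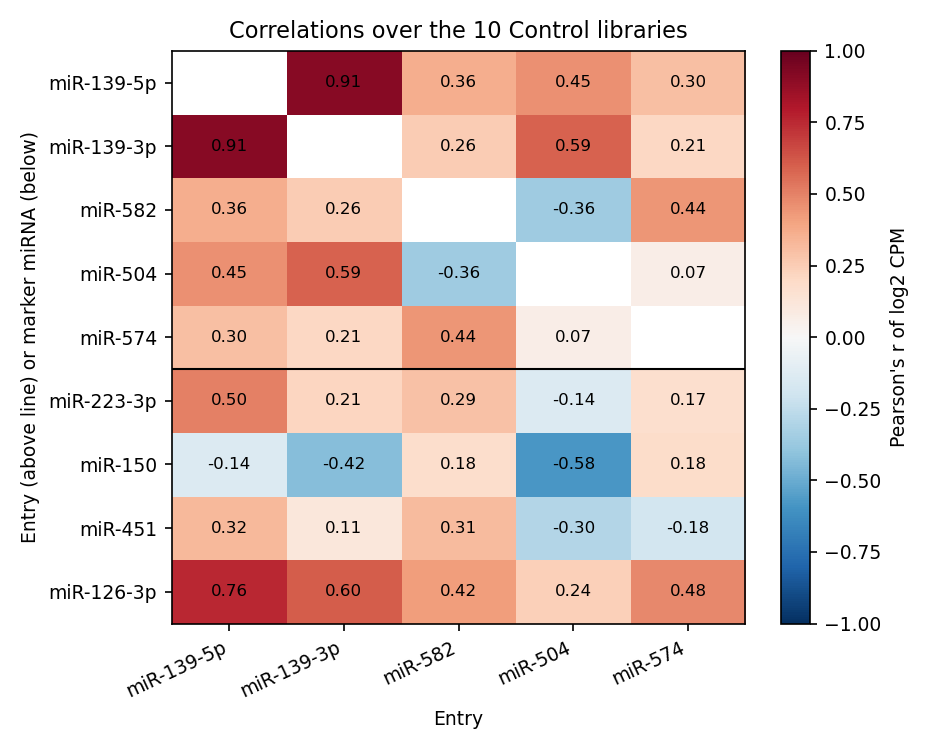
Pearson's r of log2 CPM over the 10 Control libraries between the 5 pig-reference entries (above the line) and with 4 marker miRNAs (below it). The arms of miR-139 stand out at 0.91, and miR-139-5p with miR-126-3p follows at 0.76.

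A search of the pig-reference miRNAs averaging at least 10 CPM in Control for the patterns most like each entry, by Pearson's r over the 10 Control libraries, gave each arm of miR-139 as the other's nearest, of 175 candidates. The next for both arms was miR-24-1-5p, at r = 0.869 with the 5p and 0.838 with the 3p arm. The third was miR-126-3p for the 5p arm and miR-2411 (r = 0.643) for the 3p arm. The nearest to miR-504 was miR-331-5p (r = 0.821), followed by miR-9860-5p (0.713) and miR-2320-3p (0.698). miR-574 was nearest to miR-23a (0.683), miR-9@ (0.640) and miR-362 (0.630), and miR-582 to miR-140-3p (0.701), miR-340 (0.681) and miR-151-3p (0.680). The median r of the candidates was -0.06 to 0.08. These are descriptions, and with 10 libraries and 175 candidates some high values occur without any relation. Of the 12 other miRNAs named, miR-126-3p and miR-9@ rose (log2 fold changes of 0.50 ± 0.098 and 0.48 ± 0.12 SE, adjusted p = 0.00232 and 0.00543), miR-151-3p fell (-0.27 ± 0.089, adjusted p = 0.0378, edgeR with the block), and 9 did not pass.

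The entries were chosen from these same paired libraries, and an even rise across numbers can favour both the choice and a high correlation. The p-values that follow are therefore not free of the choice. The mean difference itself does not enter into whether a replicate number kept its place among the others from before to after the bleed. Shared handling, depth and a shared animal cannot be told apart in this. Over the 10 replicate numbers the Control and ICH levels correlated for miR-139-5p (r = 0.824), miR-504 (r = 0.805) and miR-139-3p (r = 0.734). The adjusted p were 0.0173, 0.0206 and 0.0262 over the 5 entries (two-sided permutation test). Their rho were 0.733, 0.818 and 0.721, with adjusted permutation p of 0.0282, 0.0151 and 0.0282. For miR-574 rho was 0.818 (permutation adjusted p = 0.0151) and r was 0.356 (permutation adjusted p = 0.391). Number 10 had 49.4 CPM in ICH, inside the range of the others, and the lowest Control level at 16.1 CPM, and r without it was 0.548 (permutation adjusted p = 0.132). miR-582 did not pass, with r = 0.178 and rho = 0.212 (permutation adjusted p = 0.621 and 0.559). Over all 179 miRNAs tested the median r was 0.505, and 164 of 179 had r above 0. A correlation above 0 was thus usual and does not set these entries apart.

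These relations rest on few replicate numbers and on the scaling. With library totals in place of TMM only miR-504 passed (r = 0.799, permutation adjusted p = 0.0324), and miR-139-5p and miR-139-3p had r of 0.696 and 0.644 (permutation adjusted p = 0.0623 and 0.0742). With the deposited filtered counts miR-139-3p had r of 0.639 (permutation adjusted p = 0.0811). Without the 2 numbers farthest from the median Control level, r was 0.579 for miR-139-5p, 0.657 for miR-504 and 0.443 for miR-139-3p, and the relation did not pass for any of them (permutation p = 0.131, 0.0818 and 0.27). Without number 6 the same 3 had r of 0.752, 0.753 and 0.663 (permutation adjusted p = 0.0563, 0.0563 and 0.0853). Without number 4, 8 or 9 miR-139-3p alone missed the threshold, at r of 0.673 to 0.704 (permutation adjusted p = 0.0679, 0.0575 and 0.0605). Number 6 had the lowest miR-139-5p, miR-139-3p and miR-504 of all Control libraries.

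**Figure D5:**
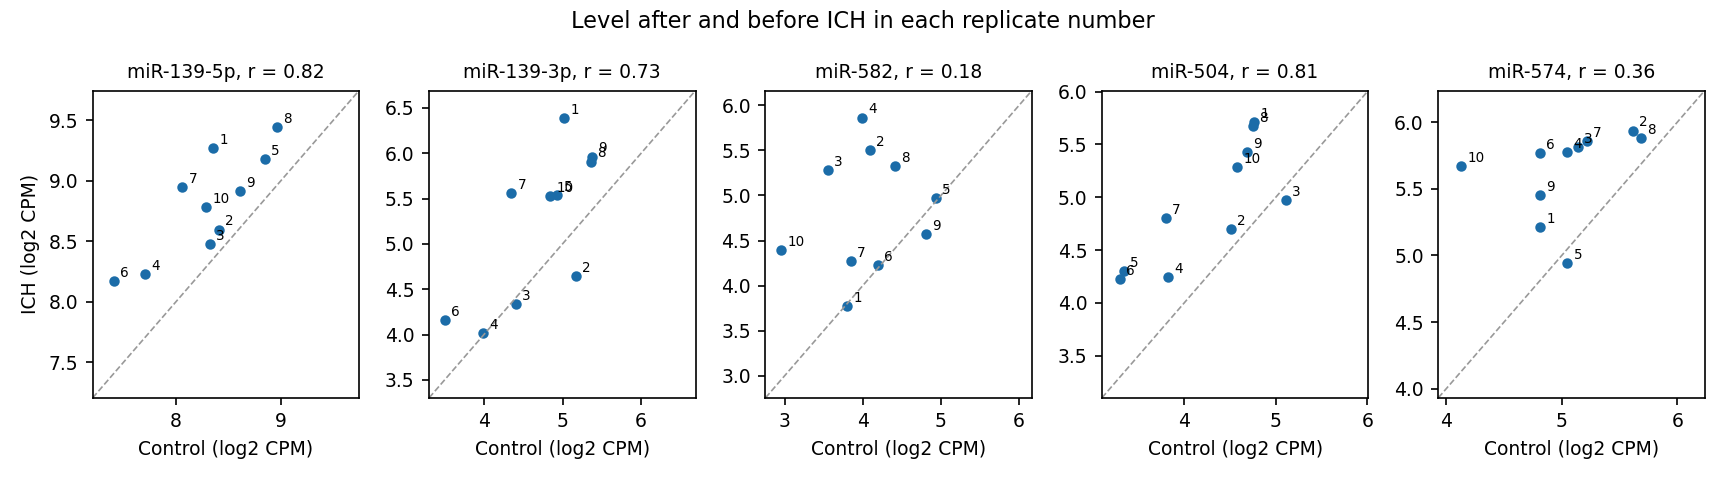
Level in ICH against level in Control (log2 CPM) for each replicate number (small digits) in the 5 pig-reference entries, with a dashed line of equal levels. Levels before and after the bleed correlate at r of 0.73 to 0.82 for miR-139-5p, miR-139-3p and miR-504, while miR-582 has r = 0.18. Without the 2 numbers farthest from the median Control level, the first 3 have r of 0.44 to 0.66. For both arms of miR-139, number 7 lies below the Control median and above the ICH median.

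Library depth moved with the level of miR-504, which is already scaled for depth. In ICH libraries r against log2 of the total was -0.646 (n = 10, permutation p = 0.0471, adjusted p = 0.159 over 10 relations) and rho was -0.648 (permutation adjusted p = 0.166). In Control libraries r was -0.850 (n = 10, permutation p = 0.00279, adjusted p = 0.0279) and rho was -0.842 (permutation p = 0.00364, adjusted p = 0.0364), so deeper libraries had lower levels. Without the 2 libraries of most extreme total r was -0.367 in ICH (permutation p = 0.368) and -0.753 in Control (permutation p = 0.0349). The other entries had r of -0.42 to -0.09 in ICH and -0.63 to 0.00 in Control, and 0 of these 8 relations passed after adjustment. Without the 2 libraries of most extreme total, their r was -0.80 to 0.23 in ICH and -0.32 to 0.01 in Control, and the lowest was miR-574 in ICH (r = -0.797, permutation p = 0.0094, not adjusted), where all 10 ICH libraries gave -0.185. Among all 179 miRNAs the median r with depth was 0.05 in ICH and 0.00 in Control, and 8 miRNAs in ICH and 1 in Control had a lower value than miR-504. Totals of the same number went together (r = 0.640, permutation p = 0.048; rho = 0.491, permutation p = 0.155), and the part of depth in miR-504 keeping its order was not tested. The ICH library was the deeper one in 6 of 10 numbers.

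The deposited filtered tables had lost many of the reads of these entries. The filter removed 25.5% of miR-582 reads, 16.5% of miR-504, 16.4% of miR-139-3p, 10.2% of miR-574 and 3.76% of miR-139-5p, against 0.319% of all pig-reference reads. Over the 55 other tested miRNAs at 10 to 100 CPM the median loss was 14.0%, with a range of 5.86% to 41.4%. The loss was close in both groups, at 24.9% of miR-582 reads in ICH and 26.6% in Control, and 15.3% of miR-504 reads in ICH and 18.5% in Control. The human table's scarcest arms lost the most, 37.8% for hsa-miR-574-5p and 50.0% for hsa-miR-582-5p. What the filter removed is not given in the sources used here.

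Other miRNAs that lie inside a gene changed in both directions after ICH. Of 284 pig-reference entries 262 could be placed on the gene table, and 153 of these lay inside a protein-coding or long noncoding gene at every locus. Among the 153, miR-6782-3p matched a long list of genes at 1 locus, so its placement is doubtful, and it was not tested. Of the 87 other miRNAs in such positions that were tested, 7 rose and 8 fell (edgeR with the block, adjusted p under 0.05), which is 8.05% and 9.2% of them. Of the 72 tested miRNAs outside other genes 8 rose and 10 fell (11.1% and 13.9%). The median log2 fold change was -0.04 in the first set and -0.07 in the second. The 5 with the largest rises and a mean of at least 10 CPM were miR-7139-5p (in E2F7), miR-486 (in ANK1, a red cell membrane gene), miR-9841-3p (in F13A1, a clotting factor subunit found in platelets and monocytes), miR-126-3p (in EGFL7, an endothelial gene) and miR-152 (in COPZ2), at 0.35 to 0.58 on the log2 scale. The call of miR-152, higher in 6 of 10 numbers, was lost in 6 of 18 alternatives and that of miR-7139-5p in 5 of 18, with adjusted p of up to 0.522 and 0.123 without the block (edgeR). miR-152 was lost with library totals and without number 5, 7, 8 or 10, and miR-7139-5p without number 6, 7, 8 or 10. miR-9841-3p averaged 209.9 ± 56.1 CPM in ICH and 154.5 ± 66.2 CPM in Control (SD, n = 10 each; adjusted p = 0.00543, edgeR). Among the largest falls were miR-34c, miR-151-5p (in PTK2), miR-181a (2 loci, in NR6A1 and LOC110255652) and miR-186 (in ZRANB2), at -0.47 to -0.31. The calls of miR-151-5p and miR-186 were lost with upper-quartile scaling (adjusted p = 0.0597 and 0.178, edgeR). Upper-quartile scaling gave 14 rises and 3 falls, and the fit without the block called 0 of all 179 miRNAs, as above. Leaving out number 4 gave 14 rises, number 7 or 10 gave 3, and number 6 or 8 gave 4.

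Markers of several cell types also differed between the groups. miR-223-3p rose 1.54-fold (log2 fold change 0.63 ± 0.15 SE, adjusted p = 0.00856) and miR-486 1.48-fold (0.57 ± 0.13, adjusted p = 0.00398), while miR-150 fell to 0.732 of its Control level (-0.45 ± 0.10, adjusted p = 0.00398; edgeR with the block). The call of miR-223-3p was lost with library totals (adjusted p = 0.111) and without number 6 (adjusted p = 0.0653, edgeR). The marker lists are set beside 11.7% of all tested miRNAs called higher and 10.1% called lower in the pig reference, and 13.1% and 6.12% in the human reference. Of the red cell list 1 of 3 tested entries rose in the pig reference and 2 of 4 in the human reference. Its summed pig level was 397.1 to 1326 CPM in ICH libraries and 110.3 to 910.7 CPM in Control libraries. Of the lymphocyte list 6 of 10 tested entries fell and 1 rose in the pig reference, and 5 of 16 fell and 2 rose in the human reference. Its pig level summed to 21062 to 36894 CPM in ICH and 27750.0 to 41045 CPM in Control. The myeloid list differed between the references. In the human reference, which has miR-223, 3 of 9 tested entries rose, both arms of miR-223 and miR-27a-5p. The pig reference has no entry named miR-27a-5p either. In the human reference the list summed to 22285 to 25186 CPM in ICH and 19405 to 22465 CPM in Control. In the pig reference, with 4 of the 5 listed miRNAs found and miR-223 not among them, 0 of 6 were called by edgeR, DESeq2 or limma, and 0 of 6 had an unadjusted p under 0.05. There it summed to 19490.2 to 23183 CPM in ICH and 19389 to 22900.0 CPM in Control. Of the platelet and vessel wall list 2 rose and 2 fell of 9 tested entries in the pig reference, and 2 rose and 0 fell of 8 in the human reference. The 2 that fell were the arms of miR-151, which the human reference names miR-151a and which its count left out. There miR-151a-5p@ fell (log2 fold change -0.38 ± 0.11 SE, adjusted p = 0.0187, edgeR with the block). miR-151a-3p did not pass (-0.20 ± 0.092, adjusted p = 0.135, edgeR with the block). The platelet and vessel wall list summed to 47546 to 59068 CPM in ICH and 45130.2 to 63756 CPM in Control in the pig reference. miR-142 summed to 10433 to 22509.6 CPM in ICH and 15610.4 to 30358 CPM in Control in the pig reference. There 1 of its 2 entries fell, miR-142-5p, a call lost in 9 of 18 alternatives, among them no block and upper-quartile scaling (adjusted p = 0.231 and 0.166, edgeR). In the human reference 0 of its 2 entries were called by edgeR or limma and 1 by DESeq2, and 2 had an unadjusted p under 0.05. miR-451, the main red cell miRNA, averaged 377.0 ± 182 CPM in ICH and 280.3 ± 199 CPM in Control (SD, n = 10 each; adjusted p = 0.158, edgeR). Each of the 7 marker entries was read in 20 of 20 libraries, with no defining marker at 0. The part of any of these in the differences of miR-139, miR-582, miR-504 and miR-574 was not tested.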

How the data were processed

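Libraries were prepared from 500 ng of PBMC total RNA (mirVana) with NEBNext reagents, per the labels' protocols. Groups and replicate numbers come from sample titles. The authors deposited whole-number read counts per miRNA against pig and human miRNAs, with filtered versions of each, and RPM values that equalled the filtered counts over their library total within 0.005, on checking. Tools listed in the submitters' processing notes are Bowtie, bcl2fastq and FastQC, with no version; the builds are hg38, GRCh38 and Sscrofa11.1. Rules for read assignment and filtering were not given in the sources used here.

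Unfiltered counts were fitted by edgeR 4.0.16 under R 4.3.3 (robust quasi-likelihood fit after filterByExpr and TMM, replicate number as a block). Benjamini-Hochberg adjustment ran over all miRNAs tested, at a threshold of 0.05. Alternatives used DESeq2 1.42.0, limma 3.58.1, other scalings, filters and left-out numbers. SEs were derived from the F statistic. The code was tested on simulated data. Correlations used log2 CPM with a prior count of 2 and 100000 permutations. The depth relations, and an alternative keeping only protein-coding hosts, were added after seeing the data.

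The design text describes samples before and 6 h after ICH, and same-numbered samples deviated together from their group means. Their r was above 0.1 in 10 of 10 pairs, from 0.129 to 0.768 in the pig reference. The median r between different numbers was -0.065 there, and its range is not given here. Same-numbered libraries were also neighbours in the library numbering, so shared handling and a shared animal cannot be told apart by this. No libraries of a group agreed within sampling noise (chi-square per degree of freedom at least 20.3). Without the block, errors cover the spread between libraries.

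The members, lists and tests were chosen with earlier results of these data known. The text names all entries of the 4 miRNAs, the 3 most alike in Control, the 5 largest rises and 4 of the 5 largest falls among other called miRNAs within genes with a mean of at least 10 CPM, and the markers. The largest of these falls is not reported here. A planned search by shared seed was not made, since no mature sequences were used here. Positions are from the NCBI RefSeq gene table of Sscrofa11.1, matched by synonym. An @ in a name marks an entry that joins miRNAs, in a way no source explains. Near-identical miRNAs (let-7, miR-181) can share reads. Figures were drawn with matplotlib 3.10.9.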

Additional observations from a re-analysis of the deposited data

How the results depend on the processing

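The fitted differences of the 10 tested entries of miR-139, miR-582, miR-504 and miR-574 were above 0 in each of 18 alternatives. In the pig reference they ranged from 0.46 to 0.62 for miR-139-5p and 0.50 to 0.71 for miR-139-3p. The ranges were 0.69 to 0.92 for miR-582, 0.66 to 0.83 for miR-504 and 0.52 to 0.73 for miR-574. The entries were chosen as higher in these libraries and the alternatives refit the same reads, so the sign is no separate support. The human entries are largely the same reads as the pig entries. Counts of called miRNAs moved more than these fitted differences, and the cause was not tested. With no replicate block the rises and falls were 0 and 0 in the pig reference, 7 and 2 in the human reference and 0 and 0 among other pig miRNAs within genes, against 21 and 18, 32 and 15, and 7 and 8 with the replicate block (edgeR; 35 of 179 pig miRNAs had an unadjusted p under 0.05 without it). Upper-quartile scaling gave 35 and 9, 18 and 29, and 14 and 3. Library totals gave 16 and 20 in the pig reference, 15 and 24 in the human reference, and 4 rises among miRNAs within genes. Without a low-count filter 5 of the miRNAs within genes fell. Leaving out 1 number gave 14 to 35 rises and 13 to 24 falls (pig), 19 to 33 and 12 to 28 (human), and 3 to 14 and 6 to 9 (within genes). Of 30 Control relations 1 passed, and 0 passed with library totals or without the 2 libraries farthest from the median, and 0 to 1 without 1 library. The 28 with an unadjusted p of 0.05 or more included 13 that changed sign in some alternative and 0 that passed in any of 15. Of 5 same-number relations 3 passed, 1 with library totals, 0 without the 2 farthest numbers, and 0 to 3 without 1 number. Of 4 neighbours in level 1 differed, and 1 to 2 without 1 library. Low counts limit miR-582 and miR-504 most, with 9 and 14 reads in their poorest libraries.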
